A study of Homo sapiens with 6 samples.

Results

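Genes known to respond to estradiol in breast cancer cells were followed in a luminal and a luminobasal breast cancer line, named pLUM and pLB for pure luminal and pure luminobasal. The list held 46 genes, chosen by name as established estradiol-responsive genes and found by the gene name of each array spot. All 46 were on the arrays, with 64 probes of 34127 gene probes in all. Of these genes, 43 passed the filter for signal and were tested among 17670 genes, for which at least 3 of the 6 arrays had to show a probe of the gene well above background. IL20, CALCR and MPPED2 did not pass.

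Both lines descend from T47D, an estrogen receptor (ER) positive human breast cancer line, by way of its T47Dco subline grown as xenografts in ovariectomized immunodeficient NSG mice. pLUM came from a tumor of an estradiol (E)-treated mouse, was propagated in 1 nM E and was purified as CLD3+ CD49f- cells. It was profiled after 72 h of 1 nM E. pLB came from a tumor of a mouse given E plus progesterone, was propagated under E withdrawal (EWD) and was purified as CLD3- CD49f+ cells. It was profiled under EWD. Both lines were kept in medium with 5% charcoal-stripped serum, and cells were stained for cytokeratin 5 and sorted before RNA was extracted. RNA from 3 sorts of each line was hybridized, 1 sort to an array. Each line is 1 isolate, so that p-values measure the spread between sorts of that isolate. Line and hormone coincided on all 6 arrays, and a difference due to the line cannot be told apart from a difference due to E.

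The arrays of a line resembled each other, with r of 0.984 to 0.991 within pLUM and 0.972 to 0.989 within pLB over tested probes, against 0.780 to 0.806 between the lines. Slide 1 and scan 1 held pLB replicate 1 beside the 3 pLUM arrays, whereas pLB replicates 2 and 3 were on slide 2. Within slide 1 the lines were compared through pLB replicate 1. For the 43 estrogen-regulated genes tested, each by the 1 probe that represents it, that value is given wherever it moved the fold by over 1.5 times or changed a call. For their other probes and for other genes it is not given. Markers of cell types were read on the arrays. Of these, CLDN3 and ITGA6 encode CLD3 and CD49f, by which the lines were purified. KRT5 encodes cytokeratin 5, for which cells were stained and sorted. The paper had reported the other luminal and luminobasal markers except EPCAM for these lines. Those markers are therefore no independent check of the labels. All 5 luminal markers (CLDN3, MUC1, KRT8, KRT18, EPCAM) were well above background in both lines, and their summed level, on the linear scale relative to the 75th percentile of an array, was 201 to 228 in pLUM and 91.5 to 92.2 in pLB. The luminal markers did not move together. By their brightest probes, CLDN3 was 104-fold, MUC1 116-fold, KRT8 2.40-fold and KRT18 1.54-fold lower in pLB, and EPCAM was 2.15-fold higher. The other KRT8 probes were 5.95-fold lower and 3.72-fold higher in pLB. All 5 luminobasal markers (KRT5, ITGA6, TP63, CDH3, ANXA1) were well above background on the pLB arrays, summing to 118 to 138. In pLUM, KRT5 and TP63 were on no array well above background, and the sum was 1.18 to 1.33. Of 6 fibroblast markers, COL3A1, DCN, LUM and PDGFRB were well above background on no array, and the sums, in which COL1A1 was the brightest, were 0.767 to 0.966 in pLUM and 0.786 to 1.14 in pLB. COL1A2 was well above background on all pLB arrays and on no pLUM array, and was at least 11.5-fold higher in pLB. The 4 endothelial markers summed to 0.0728 to 0.108 in pLUM and 0.0937 to 0.207 in pLB, and PECAM1 and KDR were well above background on no array. The 4 leukocyte markers summed to 0.414 to 0.508 in pLUM and 0.329 to 0.438 in pLB, with CD3E well above background on 1 array of each line.

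ER is a nuclear receptor encoded by ESR1. Bound by estradiol it attaches to DNA at estrogen response elements, or through other factors at sites opened by FOXA1 and GATA3, and recruits coactivators to nearby genes. TFF1, GREB1, PDZK1 and PGR are among its textbook targets in breast cancer, and several are used to read ER activity in tumors. Many of the same genes also answer to other signals, such as glucocorticoids in the case of SGK1 and FKBP5.

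Among the 43 genes tested, 22 (51.2%) were lower and 10 (23.3%) were higher in pLB by at least 2-fold at an adjusted p under 0.05 from limma, and 11 were not called. Over all genes tested, 23.0% were called lower and 22.7% higher, so that the share of estrogen-regulated genes called higher was near that of all genes. The signals of the lines did not overlap in 39 genes. All pLB arrays were below all pLUM arrays for 25 (58.1%) and above them for 14 (32.6%), where over all genes these were 33.5% and 35.7%. The median log2 difference of the 43 genes was -1.07 (pLB minus pLUM), with quartiles at -3.17 and 0.87, beside 0.04 over all genes, with quartiles at -0.93 and 0.92. Differences were also wider, with a median size of 1.96 on the log2 scale beside 0.92 over all genes. Of the 43 genes, 33 were well above background on all 6 arrays. In RNA from a sorted population, a lower signal in each cell and fewer cells carrying the transcript cannot be told apart.

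**Figure D1:**
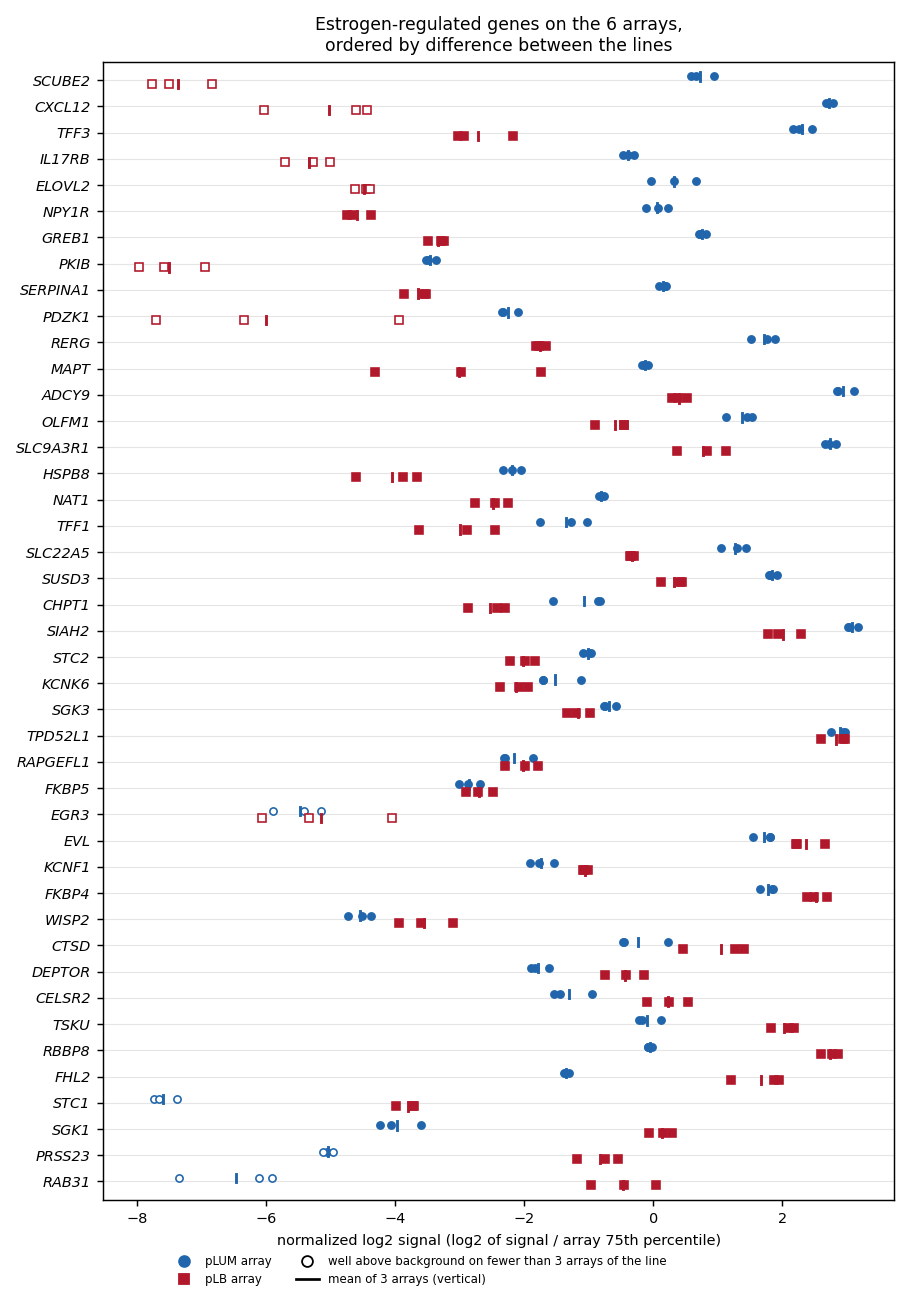
Signals of the 43 tested estrogen-regulated genes on the 3 pLUM arrays (blue circles) and 3 pLB arrays (red squares), as log2 of the ratio to the array's 75th percentile, with the mean of each line as a vertical bar. Open symbols mark a line in which the probe was well above background on fewer than 3 arrays. Genes run from SCUBE2 (difference -8.10) at the top to RAB31 (6.00) at the bottom, and only TPD52L1, RAPGEFL1, FKBP5 and EGR3 have overlapping lines.

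The secreted products held the largest decreases. Of 11 listed, 10 were tested, 6 were lower in pLB, 2 were higher and 2 were not called, with a median log2 difference of -1.81. Values for single arrays are on the log2 scale relative to the 75th percentile of the array, so that 0 is that percentile, and they are levels of 1 probe that cannot be set against those of another probe. Where a line had no array with the probe well above background, the fold is a lower bound, set on each array against the dimmest signal that passed or, if brighter, the signal of the probe. Such a probe passed the filter through the other line alone, so no p-value is set beside the bound. Genes represented by such a probe still count among those called.

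SCUBE2, which encodes a secreted protein that helps to release hedgehog ligands, read 0.59, 0.66 and 0.94 in pLUM and -7.51, -7.77 and -6.84 in pLB, with replicates 1, 2 and 3 in that order here and throughout. The lines were far apart, and no pLB array was well above background. SCUBE2 was at least 64.9-fold lower in pLB.

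CXCL12 encodes a chemokine that signals through CXCR4. Its representative probe, listed for NM_199168, read 2.68, 2.71 and 2.79 in pLUM and -4.44, -4.60 and -6.04 in pLB. The pLUM values lay within a narrow range, and 2 of 3 pLB arrays were still well above background. CXCL12 was 215-fold lower in pLB (log2 difference -7.75, SE 0.41, limma, adjusted p = 5.8e-06). All 4 CXCL12 probes were called lower. The NM_000609 probe was at least 214-fold lower, and the NM_001033886 probes were at least 4.75-fold and 26.7-fold lower. The probes lie at chr10:44872888-44872947, chr10:44865617-44865676, chr10:44871365-44871424 and chr10:44880394-44880453 (hg19, minus strand), in the order in which they are printed here. The first 30 of the 60 bases of each are shown because the 4 probes read different stretches of the gene and gave different folds.
CXCL12 NM_199168 probe: gtgacatttccatgcataaatgcgatccac
CXCL12 NM_000609 probe: cataccaatgaaaaaatgtatatgcactta
CXCL12 NM_001033886 probe, at least 4.75-fold lower: agaagaagagaaaggctgcccagaaaagga
CXCL12 NM_001033886 probe, 26.7-fold lower: atgaacgccaaggtcgtggtcgtgctggtc

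TFF3 and TFF1 encode trefoil peptides, small secreted proteins of mucosal surfaces. TFF3 read 2.17, 2.47 and 2.26 in pLUM and -2.18, -3.03 and -2.93 in pLB. It remained well above background on every array of either line. TFF3 was 32.2-fold lower in pLB (log2 difference -5.01, SE 0.26). The other TFF3 probes were 29.8-fold lower, with 1 of 3 pLB arrays well above background, and at least 2.78-fold lower. TFF1 read -1.76, -1.03 and -1.27 in pLUM and -3.64, -2.90 and -2.46 in pLB. The lowest pLUM array and the highest pLB array were much closer to each other than for TFF3. TFF1 was 3.12-fold lower (log2 difference -1.64, SE 0.33, limma, adjusted p = 0.0040). Within slide 1 its difference was -2.28.

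SERPINA1, which encodes alpha-1 antitrypsin, had a log2 difference of -3.81, at 0.16 ± 0.06 in pLUM and -3.65 ± 0.18 in pLB (SD, n = 3 each). Another SERPINA1 probe did not pass on any array. The stanniocalcins, secreted glycoproteins of calcium and phosphate balance, were measured by 1 probe each. STC2 read -1.02 ± 0.07 in pLUM and -2.02 ± 0.19 in pLB (SD, n = 3 each). Its lines did not overlap, but the log2 difference of -0.998 (95% interval -1.39 to -0.60) was just short of 2-fold. STC1 read -7.38, -7.75 and -7.67 in pLUM, where no array was well above background, and -3.71, -3.99 and -3.72 in pLB. The increase was at least 2.97-fold, but with the normexp background correction the log2 difference was 0.22 (limma, adjusted p = 0.66) and the call was lost.

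TSKU, which encodes a small secreted leucine-rich proteoglycan, read -0.22, -0.17 and 0.12 in pLUM and 2.17, 2.10 and 1.82 in pLB. All arrays of pLB were above those of pLUM, and TSKU was 4.35-fold higher. WISP2, a matricellular protein also named CCN5, read -4.38, -4.73 and -4.52 in pLUM and -3.10, -3.94 and -3.60 in pLB. Its log2 difference of 0.995 (95% interval 0.42 to 1.57) fell just short of 2-fold, and it was 1.44 within slide 1, where it was called. The cytokine gene IL20 was well above background on no array.

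Sequence upstream of the starts of these genes was examined for the arm of the estrogen response element, GGTCA, on both strands (so also TGACC). The element consists of an arm and its inverted copy. Windows of 250 bases before a start were read from the RefSeq table for GRCh38.p14, which held 55 windows for 33 of the 46 genes. TFF1, TFF3, GREB1 and RERG were among the genes without a window, and their upstream sequence was not searched. An arm was in 16 of these windows (29.1%), in 13 genes, beside 32.6% of all 35116 windows of the table. No window of these genes held the palindrome of GGTCA, any 3 bases and TGACC, which 0.0399% of all windows held. Arms were in 4 of 15 genes called lower that had a window (CXCL12, PDZK1, SERPINA1, CHPT1), in 4 of 8 called higher (RAB31, PRSS23, CTSD, FHL2) and in 4 of 7 not called (RAPGEFL1, FKBP5, KCNF1, EVL). A match is a description of these letters, and elements outside the window were not searched. The windows of CXCL12, PDZK1 and CTSD are shown with arms in capitals. They were chosen after the values were seen, as genes with an arm that were called lower (CXCL12, PDZK1) and as the gene called higher that had 3, a number reached by 1.34% of all windows. The windows are chr10:44385098-44385347, chr1:145707401-145707650 and chr11:1763928-1764177 (GRCh38.p14, minus strand).
CXCL12 window: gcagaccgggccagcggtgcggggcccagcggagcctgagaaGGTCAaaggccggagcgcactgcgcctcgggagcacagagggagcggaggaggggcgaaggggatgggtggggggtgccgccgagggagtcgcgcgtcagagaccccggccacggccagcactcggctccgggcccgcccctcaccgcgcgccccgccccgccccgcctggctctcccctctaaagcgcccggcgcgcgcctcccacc
PDZK1 window: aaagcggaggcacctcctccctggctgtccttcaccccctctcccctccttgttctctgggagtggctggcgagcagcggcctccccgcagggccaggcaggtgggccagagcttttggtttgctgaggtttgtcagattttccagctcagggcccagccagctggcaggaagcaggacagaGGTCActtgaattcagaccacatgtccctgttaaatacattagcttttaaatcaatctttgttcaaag
CTSD window: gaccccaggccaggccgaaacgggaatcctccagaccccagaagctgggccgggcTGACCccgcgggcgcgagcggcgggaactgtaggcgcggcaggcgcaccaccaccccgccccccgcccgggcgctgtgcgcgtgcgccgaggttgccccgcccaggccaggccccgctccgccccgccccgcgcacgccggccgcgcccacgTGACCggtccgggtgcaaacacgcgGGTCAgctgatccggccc

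Genes of transcription, ubiquitin transfer and DNA ends were 4, of which 2 were lower, 1 was higher and 1 was not called. GREB1, an ER cofactor named for its growth regulation by estrogen, had 3 probes. The representative probe, listed for NM_014668, read 0.82, 0.71 and 0.73 in pLUM and -3.24, -3.49 and -3.29 in pLB. The arrays of each line lay close together on this probe, and GREB1 was 17.1-fold lower in pLB (log2 difference -4.09, SE 0.16, limma, adjusted p = 1.5e-06). The NM_148903 probe read -1.74, -1.73 and -1.88 in pLUM and -5.40, -5.06 and -4.44 in pLB, where 2 of 3 arrays were well above background, and was 9.08-fold lower. The BC071853 probe read -1.97, -2.26 and -1.18 in pLUM and -1.89, -1.93 and -1.95 in pLB. On that probe the lines overlapped, and the log2 difference was -0.12 (95% interval -0.78 to 0.54, limma, adjusted p = 0.72). The 3 probes lie at chr2:11782680-11782739, chr2:11725943-11726002 and chr2:11721329-11721388 (hg19, plus strand), so that the probe without a difference lies furthest upstream. The first 30 bases of each are shown as the stretches of GREB1 that differed and the stretch that did not.
GREB1 NM_014668 probe: aaagtccgcgagtattaaatatttagatca
GREB1 NM_148903 probe: cacctttccagtggtggcctctggagaacc
GREB1 BC071853 probe: accgctgtctcttgttagtcaggggacctt

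SIAH2, which encodes an E3 ubiquitin ligase, read 3.18, 3.03 and 3.02 in pLUM and 2.29, 1.94 and 1.78 in pLB. It was lower on all pLB arrays, by 2.10-fold, close to the threshold. The call of SIAH2 was lost within slide 1 (-0.79) and without pLB replicate 3 (-0.96). RBBP8 encodes CtIP, which trims DNA ends before repair by recombination. It read -0.08, -0.08 and -0.02 in pLUM and 2.61, 2.77 and 2.86 in pLB. RBBP8 was 6.97-fold higher in pLB, with the lines far apart (log2 difference 2.80, SE 0.15). EGR3, an immediate early zinc finger factor, was well above background on 2 of 3 arrays of each line. Its lines overlapped, and the log2 difference was 0.33 (95% interval -0.82 to 1.49).

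Of 10 scaffolds, small GTPases and signalling adaptors, 5 were lower, 2 were higher and 3 were not called. PKIB, an inhibitor of protein kinase A, read -3.49, -3.52 and -3.37 in pLUM and -7.58, -7.97 and -6.95 in pLB. No pLB array was well above background, and PKIB was at least 3.56-fold lower. PDZK1, a PDZ domain scaffold of membrane transporters, read -2.33, -2.10 and -2.34 in pLUM and -7.72, -3.95 and -6.34 in pLB. Only 1 of 3 pLB arrays was well above background, and the pLB values were spread widely although all were below pLUM. PDZK1 was 13.4-fold lower (log2 difference -3.74, SE 0.84, limma, adjusted p = 0.0061). It was -2.45 with dim signals set to a floor and -1.62 with the normexp correction. The value also depended on the array, at -2.89 without pLB replicate 1, -4.77 without pLB replicate 2 and -5.46 within slide 1. PDZK1 has a near-identical pseudogene, and which copy the probe read was not tested.

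RERG, a RAS-related GTPase named for its regulation by estrogen, was 11.1-fold lower, at 1.72 ± 0.19 in pLUM and -1.75 ± 0.08 in pLB (SD, n = 3 each). MAPT, the microtubule-associated protein tau, read -0.08, -0.18 and -0.15 in pLUM and -1.75, -4.31 and -2.98 in pLB. Its pLB arrays spread much more than its pLUM arrays. MAPT was 7.36-fold lower (log2 difference -2.88, SE 0.57), and the difference was -3.51 without pLB replicate 1, -2.23 without pLB replicate 2 and -1.61 within slide 1. SLC9A3R1, the scaffold also named NHERF1, was 3.90-fold lower, at 2.74 ± 0.09 in pLUM and 0.77 ± 0.38 in pLB (SD, n = 3 each).

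RAB31 encodes a small GTPase of vesicle transport and had the largest fitted increase. It read -5.91, -7.35 and -6.12 in pLUM and 0.04, -0.46 and -0.97 in pLB. No pLUM array was well above background, and all pLB arrays were. RAB31 was at least 30.2-fold higher in pLB. With the normexp correction its log2 difference was 2.25, below that of RBBP8 (2.68). FHL2, a LIM domain adaptor that binds many transcription factors, read -1.31, -1.36 and -1.39 in pLUM and 1.95, 1.87 and 1.20 in pLB on its representative probe. FHL2 was 8.16-fold higher (log2 difference 3.03, SE 0.23). The NM_201555 probe read -3.92, -3.92 and -4.34 in pLUM and -1.52, -1.57 and -1.44 in pLB, and was 5.86-fold higher. The ENST00000409177 probe read -0.08, 0.04 and -0.38 in pLUM and -1.16, -0.52 and 0.51 in pLB. The lines overlapped there, with a log2 difference of -0.25 (95% interval -1.19 to 0.69). These probes lie at chr2:105977302-105977361, chr2:105990021-105990080 and chr2:105974171-105974230 (hg19, minus strand), and the probe without a difference lies furthest downstream. The first 30 bases of each are shown to set the stretch that did not differ beside those that did.
FHL2 NM_001039492 probe: tttacagctctgtaacctcccgttgcgtca
FHL2 NM_201555 probe: tacagactgctattccaacgagtactcatc
FHL2 ENST00000409177 probe: tccatggattcctcatctgtggattcaacc

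The remaining adaptors were not called. EVL, an actin regulator of the Ena/VASP family, was above pLUM on all pLB arrays, with a log2 difference of 0.65 (SE 0.19). TPD52L1 (-0.05) and RAPGEFL1 (0.13) had overlapping lines. Both TPD52L1 probes gave differences near 0, with 95% intervals of -0.47 to 0.36 and -0.51 to 0.42.

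**Figure D2:**
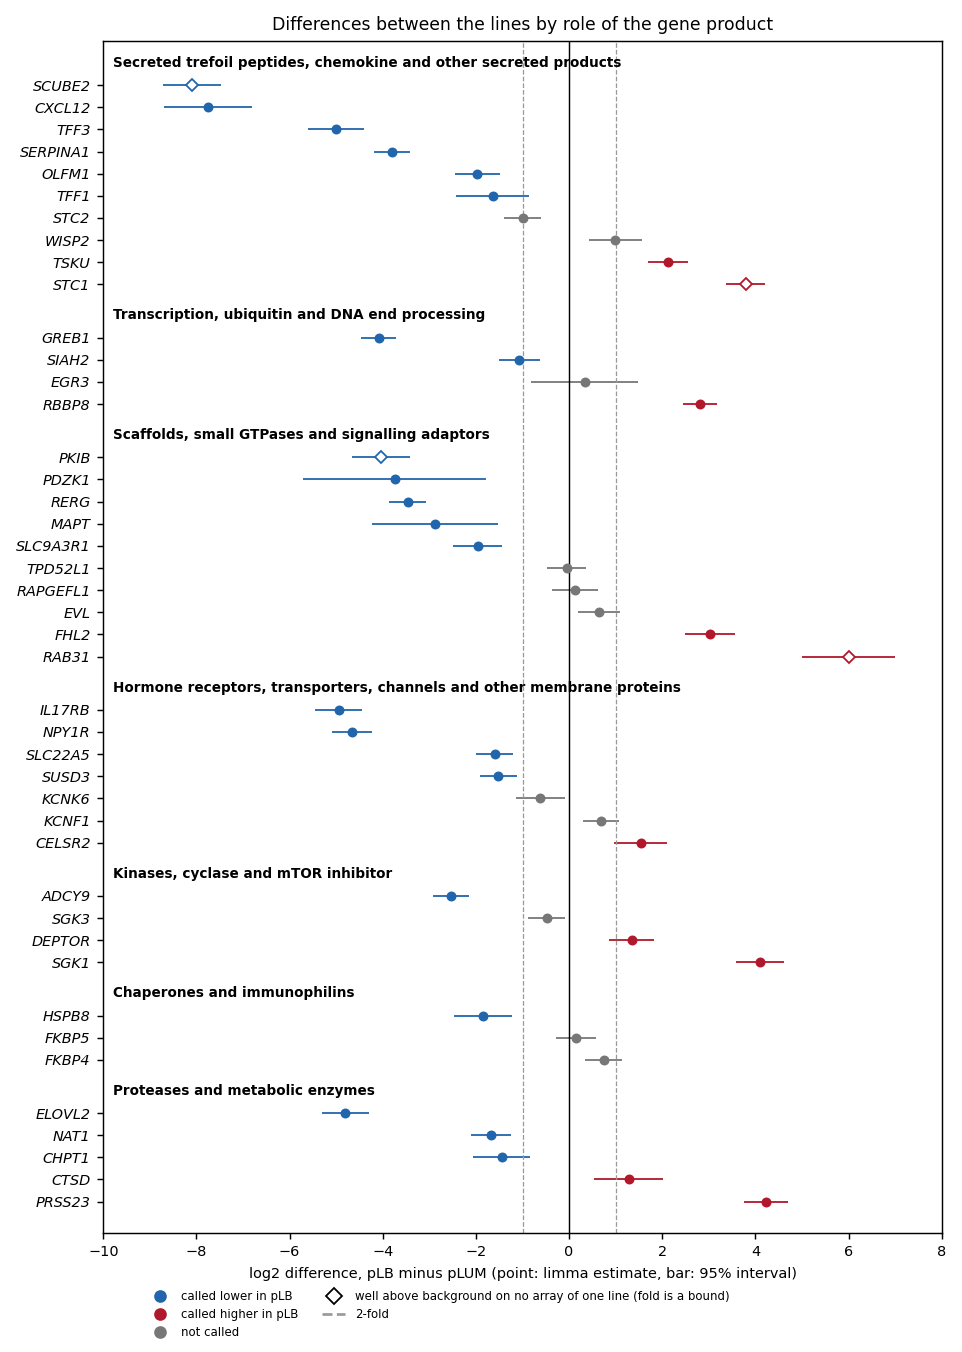
Log2 difference (pLB minus pLUM) of each tested gene with its 95% interval, from limma with 3 arrays per line, grouped by the role of the product. Blue marks genes called lower in pLB (22), red those called higher (10) and grey those not called (11), dashed lines mark 2-fold, and open diamonds mark SCUBE2, PKIB, STC1 and RAB31, whose fold is a bound. Every group of more than 3 genes holds decreases and increases.

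Among membrane proteins, 7 of 8 were tested, 4 were lower, 1 was higher and 2 were not called. IL17RB, a receptor subunit for IL-17B and IL-25, read -0.40, -0.30 and -0.46 in pLUM and -5.28, -5.01 and -5.71 in pLB. Its pLB signals were well above background on 2 of 3 arrays and far below pLUM. IL17RB was 30.9-fold lower (log2 difference -4.95, SE 0.21). NPY1R, a receptor for neuropeptide Y, read 0.23, -0.11 and 0.07 in pLUM and -4.74, -4.66 and -4.37 in pLB. It was 25.2-fold lower, and was still well above background on all arrays. SLC22A5, a carnitine transporter, was 3.03-fold lower, at 1.26 ± 0.20 in pLUM and -0.33 ± 0.04 in pLB (SD, n = 3 each). SUSD3, a sushi domain protein of the cell surface, was 2.86-fold lower, at 1.84 ± 0.07 and 0.32 ± 0.18 (SD, n = 3 each).

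CELSR2, an adhesion receptor of the cadherin family, went the other way. It read -1.44, -1.54 and -0.94 in pLUM and 0.54, 0.24 and -0.10 in pLB. All pLB arrays were above pLUM, and CELSR2 was 2.90-fold higher (log2 difference 1.54, SE 0.24). The potassium channel genes were not called. KCNK6 was below pLUM on all pLB arrays, with a log2 difference of -0.61 (95% interval -1.14 to -0.09), and KCNF1 was above it, with 0.69 (95% interval 0.30 to 1.07). The calcitonin receptor gene CALCR was well above background on no array by either of its probes.

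The 4 kinases and regulators of second messengers were split. ADCY9, an adenylyl cyclase, was 5.84-fold lower, at 2.94 ± 0.14 in pLUM and 0.40 ± 0.12 in pLB (SD, n = 3 each). SGK1 encodes a serum- and glucocorticoid-induced kinase. It read -4.07, -3.59 and -4.24 in pLUM and 0.28, 0.16 and -0.06 in pLB. SGK1 was well above background on all 6 arrays and was 17.1-fold higher in pLB (log2 difference 4.10, SE 0.22, limma, adjusted p = 6.2e-06). Its relative SGK3 was not called, and the log2 difference was -0.48 (95% interval -0.88 to -0.08). The mTOR inhibitor DEPTOR, also named DEPDC6, was 2.54-fold higher, at -1.78 ± 0.14 in pLUM and -0.44 ± 0.30 in pLB (SD, n = 3 each). The DEPTOR difference was 0.92, under 2-fold, with the normexp correction.

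Chaperones and immunophilins were 3, with 1 lower and 2 not called. HSPB8, a small heat shock protein, was 3.63-fold lower, at -2.19 ± 0.14 in pLUM and -4.05 ± 0.50 in pLB (SD, n = 3 each). FKBP5, a co-chaperone of steroid receptors, had overlapping lines, with a log2 difference of 0.15 (95% interval -0.28 to 0.59). FKBP4, another such co-chaperone, had probes that disagreed. The representative probe read 1.84, 1.65 and 1.86 in pLUM and 2.70, 2.38 and 2.49 in pLB, where all arrays were above pLUM, but its difference of 0.74 (95% interval 0.35 to 1.13) was under 2-fold. The other probe, listed for the same transcript, read -0.60, 0.06 and -0.06 in pLUM and -1.41, -1.43 and -1.47 in pLB and was called lower, by 2.36-fold. The mean of the FKBP4 probes had a log2 difference of -0.25. The representative probe lies at chr12:2912469-2912528 and the other at chr12:2909056-2909213 (hg19, plus strand), where its 60 bases are placed over a span of 158 bases. The first 30 bases of each show the stretches whose signals went in opposite directions.
FKBP4 representative probe: ctccccactccaccctgttagttttgtaaa
FKBP4 other probe: ccaccaaatgctgagctgaaatatgaatta

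OLFM1, a secreted glycoprotein, also had unlike probes. The representative probe, for NM_014279, read 1.12, 1.45 and 1.53 in pLUM and -0.45, -0.46 and -0.90 in pLB, and was 3.91-fold lower. The NM_006334 probe read 0.62, 0.66 and 0.72 in pLUM and -0.59, -0.58 and -0.56 in pLB, and was 2.37-fold lower. Those probes separated the lines, but the probes for BC000189 (log2 difference 0.65, adjusted p = 0.059) and ENST00000371801 (1.20, adjusted p = 0.080, both from limma) were not called. On the BC000189 probe OLFM1 read -4.36, -5.08 and -4.21 in pLUM and -3.78, -4.08 and -3.84 in pLB, and on the ENST00000371801 probe -4.45, -6.59 and -5.06 in pLUM and -4.21, -3.76 and -4.52 in pLB. In pLUM 2 of 3 arrays were well above background on each, and in pLB all were. With the mean of its probes OLFM1 was not called (-0.34, limma, adjusted p = 0.20).

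**Figure D3:**
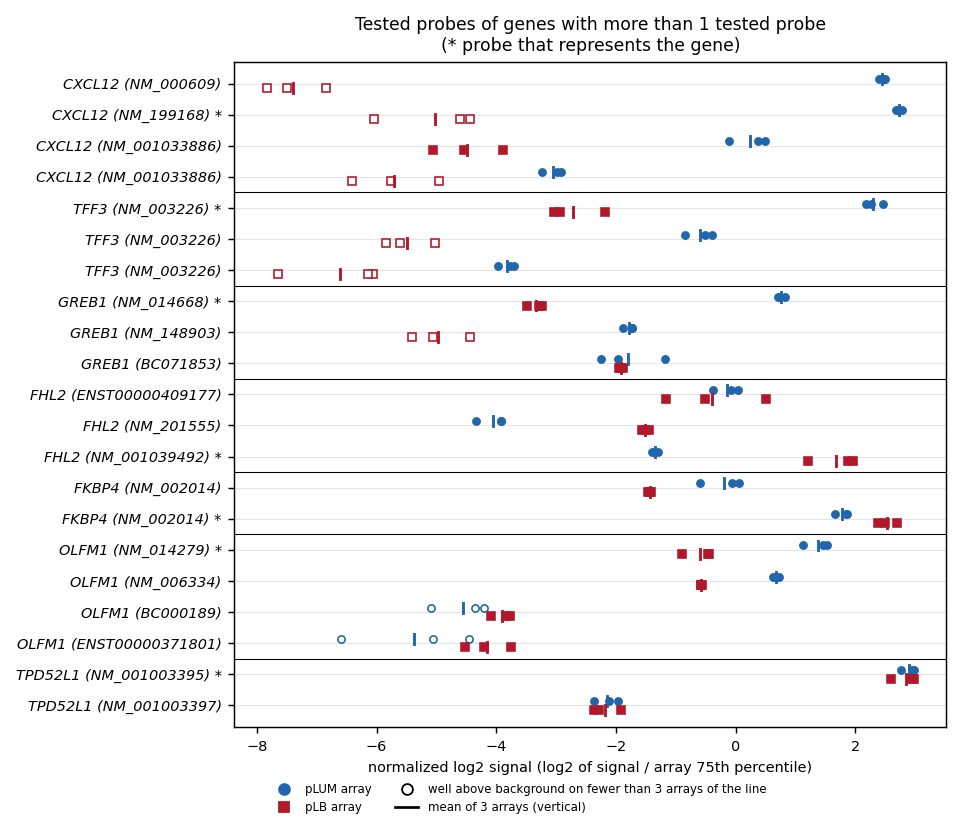
Signals of the tested probes of CXCL12, TFF3, GREB1, FHL2, FKBP4, OLFM1 and TPD52L1 on each array, named by the transcript listed for the probe, on the log2 scale relative to the 75th percentile of the array. Symbols are as in the plot of all genes, and an asterisk marks the representative probe. All CXCL12 and TFF3 probes are lower in pLB, whereas GREB1 and FHL2 each have a probe on which the lines overlap and the FKBP4 probes move in opposite directions.

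Proteases and metabolic enzymes were 6, of which 5 were tested, 3 lower and 2 higher. ELOVL2, an elongase of polyunsaturated fatty acids, read 0.66, 0.32 and -0.03 in pLUM and -4.45, -4.39 and -4.62 in pLB, where 2 of 3 arrays were well above background. The lines were far apart, and ELOVL2 was 27.9-fold lower (log2 difference -4.80, SE 0.21). NAT1, an arylamine N-acetyltransferase, was 3.21-fold lower, at -0.81 ± 0.04 in pLUM and -2.49 ± 0.26 in pLB (SD, n = 3 each). CHPT1, which completes the synthesis of phosphatidylcholine, was 2.73-fold lower, at -1.08 ± 0.41 and -2.53 ± 0.30 (SD, n = 3 each).

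PRSS23, a serine protease, read -5.07, -5.12 and -4.96 in pLUM and -0.75, -0.54 and -1.18 in pLB. In pLUM 2 of 3 arrays were well above background, and all pLB arrays were far above pLUM. PRSS23 was 18.7-fold higher in pLB (log2 difference 4.23, SE 0.20, limma, adjusted p = 4.0e-06). CTSD, the lysosomal protease cathepsin D, read -0.46, -0.47 and 0.22 in pLUM and 1.41, 1.27 and 0.46 in pLB. pLUM replicate 3 and pLB replicate 3 were close, although the lines did not overlap. CTSD was 2.43-fold higher (log2 difference 1.28, SE 0.31, limma, adjusted p = 0.0092). The phosphoesterase gene MPPED2 had 3 probes, of which 1 was well above background on 1 pLB array and the others on none.

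Other genes of the pathway were taken from a list of 24 receptors, coregulators and estradiol-responsive genes, of which 22 were tested. In pLB 8 of these were lower and 8 were higher (5 with the normexp correction), and 6 were not called, beside the same 23.0% and 22.7% of all genes. The receptors and the factors that open chromatin for ER were all lower where tested, on the representative probes. ESR1 read -2.38, -2.11 and -2.89 in pLUM and -4.50, -4.76 and -3.51 in pLB on its representative probe. The arrays did not overlap, and ESR1 was 3.47-fold lower on that probe. The other ESR1 probes, well above background on no pLB array, were at least 38.7-fold and at least 20.4-fold lower. PGR, the progesterone receptor gene and a target of ER itself, read 0.64, 0.78 and 0.94 in pLUM and -7.60, -7.95 and -5.00 in pLB, and was at least 67.5-fold lower.

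FOXA1 read 1.37, 1.38 and 1.28 in pLUM and -0.71, -0.69 and -1.37 in pLB, and GATA3 read 5.78, 5.66 and 5.69 in pLUM and 0.52, 0.21 and 0.30 in pLB. Both remained well above background in pLB, with log2 differences of -2.27 (SE 0.22) and -5.36 (SE 0.16). TFAP2C, a further factor at ER sites, was 5.53-fold lower, and the membrane estrogen receptor gene GPER was 3.35-fold lower on its representative probe. Of the other GPER probes, 1 was 3.18-fold lower and 2 had overlapping lines, with log2 differences of -0.02 and -0.05. ESR2, the gene for ER beta, was well above background on no array. Among coregulators, the corepressor gene NCOR1 was 3.36-fold higher on its representative probe, but its other probes had overlapping lines, with log2 differences of -0.01 and 0.06. NCOA1, NCOA2, NCOA3 and NRIP1 were not called, with log2 differences of 0.47, 0.87, -0.74 and 0.00 on the representative probes. The other NRIP1 probe was called lower, with a log2 difference of -1.01.

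The other estradiol-responsive genes went in both directions, as the 43 genes did. XBP1, a factor of the unfolded protein response, was 9.92-fold lower and the transcription factor MYB was 55.4-fold lower. MYC was 5.79-fold higher, and CCND1, which encodes cyclin D1, was 2.64-fold higher. The EGFR ligand AREG was 28.6-fold higher, on a probe that a near-identical gene copy may share. IGF1R and IGFBP4, of the insulin-like growth factor system, were 2.23-fold and 2.68-fold higher. CYP1B1, which hydroxylates estradiol, was 2.03-fold higher, but its other probe was not called (log2 difference 0.41). BCL2, the survival gene, was well above background on no pLUM array and was at least 2.90-fold higher, on a probe that passed the filter through pLB alone. The other BCL2 probe tried was well above background on no array and was not tested. AGR2 (-0.91) and CA12 (-0.70) were not called, and AGR3 was well above background on no array.

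**Figure D4:**
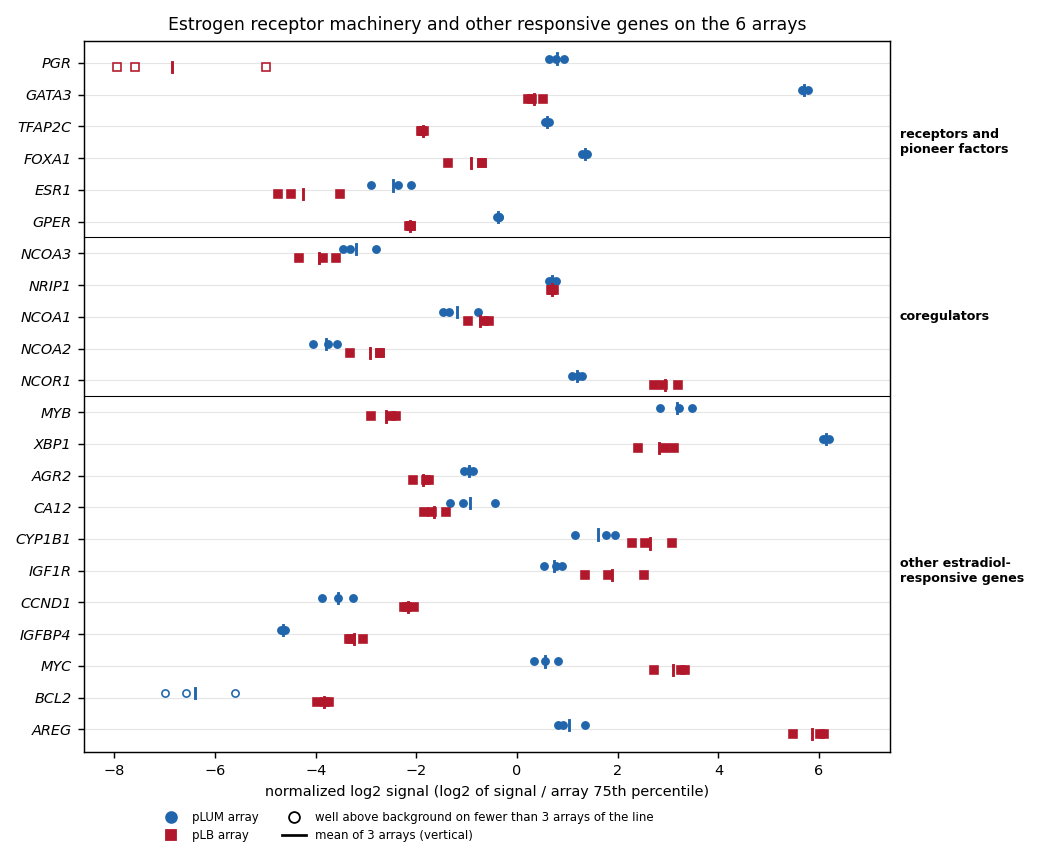
Signals of the representative probes of the 22 tested genes of the wider estrogen pathway on the 3 pLUM arrays (blue circles) and the 3 pLB arrays (red squares), as log2 of the ratio to the array's 75th percentile, with line means as vertical bars and open symbols where a line had fewer than 3 arrays well above background. Receptors and pioneer factors, from PGR (at least 67.5-fold) to GPER (3.35-fold), are all lower in pLB. NCOR1 is higher, and the other responsive genes run from MYB (55.4-fold lower) to AREG (28.6-fold higher).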

How the data were processed

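RNA from sorted pLUM and pLB cells was profiled on 4x44K Agilent arrays with 1 dye, 1 array per sample, and groups came from the labels. The methods do not state which cytokeratin 5 fraction was hybridized. The authors deposited scanner output of Agilent Feature Extraction 10.10.1.1, with a background-corrected intensity per spot that was not normalized between arrays, and gene names and hg19 positions. Per the labels Partek was used, and those values were not used here.

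From the deposited intensity, log2 values minus the 75th percentile of the array (449 to 869 in intensity units) were taken, after control spots and 296 to 387 outlier spots per array were left out. Spots of a probe were averaged. At least 3 of 6 arrays had to show a probe well above background, and the 23105 such probes were compared with limma 3.58.1 (lmFit, eBayes) in R 4.3.3, and p-values were adjusted by Benjamini-Hochberg over all of them. A call needed 2-fold and an adjusted p under 0.05. A gene was represented by its tested probe with the highest mean. On the arrays 21285 to 22775 probes were well above background and 0 gene spots were saturated. The number of arrays limits the precision. The fit was tested on simulated data.

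The genes, the pathway and marker lists and the tests were chosen with earlier results of these data known. By rule, all 46 genes are named, and values on every array are given for TFF1, TFF3, GREB1, PDZK1, PKIB, PRSS23, the 8 largest called decreases and increases, and genes with unlike probes. Of the pathway list ESR1, PGR, FOXA1, GATA3 and genes called are named, and 2 genes that it also held at the outset are not reported here, for a reason unrelated to their values. Values for other genes were added after they were seen. The rule also asked for protein sequences and for promoters with the palindrome. The former were not analysed here, and the latter were in no window, so that windows with an arm of it are shown instead. Transcript parts under the probes were not analysed here.

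Replicate numbers were given by the labels, but deviations of same-numbered samples had r of -0.27, -0.09 and -0.22 over probes, so they were not used as pairs. Alternatives were the normexp correction (offset 50), quantile, median and spike-in scaling, other filters, a signal floor, the mean of probes, other thresholds, the methods' t-test, slide or replicate blocks, and leaving out each array.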

Additional observations from a re-analysis of the deposited data

How the results depend on the processing

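No gene that was called changed direction under any of 20 alternatives, and 32 of 43 genes kept their call or lack of it in all that gave a value. The counts of 22 lower and 10 higher stayed within 1.5 times, at 17 to 25 and 7 to 14. The 17 and 7 were over the 34 genes with a probe well above background on all 6 arrays, beside 3026 lower and 3041 higher over all genes. The 25 and 14 were without the fold threshold, beside 5480 and 5729. With each array left out the counts were 22 to 23 and 10 to 11, those of the pathway list 8 to 8 lower and 6 to 9 higher, and the median difference of the estrogen-regulated genes ran from -1.22 (without pLB replicate 1) to -1.01. That median was -1.26 with quantile normalization and -0.82 with spike-in scaling and with slide as a block. Spike-in scaling moved the median of all genes by 0.25 and the share of calls that were higher from 49.7% to 59.9%, and the normexp correction moved it by -0.24 and took genes called higher from 4016 to 2563 and those of the pathway list from 8 to 5. The cause was not tested. SIAH2 was not called with normexp (-0.94) or spike-in scaling (-0.82). STC2 was called with quantile normalization (-1.02) and median scaling (-1.01) and without pLUM replicate 2 (-1.03), pLB replicate 1 (-1.09) or pLB replicate 3 (-1.01). WISP2 was called with spike-in scaling (1.25) and without pLUM replicate 1 (1.08), pLUM replicate 3 (1.01), pLB replicate 2 (1.19) or pLB replicate 3 (1.02), and was at -0.07 with normexp. The normexp correction moved 18 genes by over 1.5-fold, mostly toward 0, SCUBE2 to -4.08, CXCL12 to -5.53, IL17RB to -2.89, ELOVL2 to -3.07, NPY1R to -2.97, PKIB to -1.41, SGK1 to 2.45, PRSS23 to 1.87 and RAB31 to 2.25, and the signal floor moved 5. The signal floor left NPY1R at -4.65 and SGK1 at 4.10. The normexp correction also adds an offset of 50, and the part of the offset in these shifts was not tested. The size of the largest differences thus depended on the processing. CXCL12 was at -4.74 on arrays all well above background, where another probe represents it. With the replicate number as a block, which the numbers do not warrant as a pairing, there were 22 lower and 10 higher and 8 lower and 7 higher of the pathway list, with a median of -1.07.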
